A study of Argyrosomus regius with 12 samples.

Results

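The 200 Trinity genes described here are those of the meagre spleen that stood highest over saline controls 4 h after injection of bacterial lipopolysaccharide (LPS) and whose LPS and control means differed little at 24 h. They were taken from 42480 Trinity genes, the sets of assembled transcripts that the Trinity assembler groups under a common gene identifier. Levels are CPM, counts of a gene divided by the library total and set to a common scale, and are not divided by transcript length. A gene first needed a mean of at least 5 CPM over LPS 4 h replicates 1 and 3, which 14511 genes had. Its mean at 24 h under LPS, divided by that under saline with 0.5 CPM added to each, then had to lie between 0.67 and 1.5, which left 10693 genes. These were scored by the log2 ratio of the lower of LPS 4 h replicates 1 and 3 to the highest of the 3 control pools at 4 h, with 0.5 CPM added to each, and the 200 highest scores were kept.

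The members were thus chosen by their CPM in LPS 4 h replicates 1 and 3, in PBS 4 h and, as a ratio, at 24 h. Their height at 4 h in these pools and their closeness at 24 h are therefore given as descriptions with no test. LPS 4 h replicate 2 took no part in the choice, nor did the level of the 24 h pools against the 4 h pools. The scores ran from 6.66 down to 1.58, which are ratios of 101 and 2.99. The member of rank 2 had a ratio of 88.3, and that of rank 3 a ratio of 21.1. A score of at least 3 was held by 25 members and of at least 2 by 108. The threshold cut through a continuous range, with the last 5 members between 1.59 and 1.58 and the next 5 genes between 1.58 and 1.54. Of the 10693 genes scored, 2394 (22.4%) had a score above 0.

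The fish were juvenile meagre (Argyrosomus regius) of 22 g, a marine bony fish, kept at 22 °C. Treated fish were given 10 µg per g of body weight of LPS from Photobacterium damselae subsp. piscicida Lg41/01 into the body cavity, and control fish phosphate-buffered saline (PBS). Spleens were collected 4 h and 24 h later, 12 per group, and pooled by 4, so that each of the 4 groups (PBS 4 h, LPS 4 h, PBS 24 h, LPS 24 h) has 3 pools with 1 library each. The labels give no strain, sex or age. A pooled spleen is a mixture of cell types, so fewer cells of a type and less RNA per cell cannot be told apart. Library totals ran from 29614365 to 56556752 counts. The file pairs no identifier with a gene name, so roles of the members are not given here, and the labelled tissue was not checked against marker genes.

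LPS is a component of the outer membrane of Gram-negative bacteria. In mammals it is sensed by a Toll-like receptor complex on macrophages and other cells, and signalling through NF-kB switches on cytokine, chemokine and transcription factor genes. Many of these mammalian transcripts appear early and then decline, because their RNA is short-lived and because the first products include inhibitors of the pathway. Sensing of LPS in bony fish is known to differ from that in mammals, and the spleen, which filters blood and holds many macrophages and lymphocytes, is a main site of the response.

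The LPS 4 h pools did not behave as a group of like pools. Replicates 1 and 3 were high for the members, by the rule, and replicate 2 was not. In LPS 4 h replicate 1 the members took 2.98% of all counts, and in replicate 3 they took 3.61%. In LPS 4 h replicate 2 they took 0.541%. The PBS 4 h pools were at 0.530%, 0.515% and 0.612%, the PBS 24 h pools at 0.398%, 0.486% and 0.378%, and the LPS 24 h pools at 0.442%, 0.445% and 0.506%. Replicate 2 thus lay within the range of the PBS 4 h pools and far below the other pools of its own label. Replicate 2 lay above the lower of replicates 1 and 3 for 0 of the 200 members, against 71.2% of the 10693 genes that met the conditions on level and 24 h ratio. The rule chose members for a high value in that lower pool, which favours a low count, so nothing is read from it. The shares of LPS 4 h replicates 1 and 3 were made high by the rule, so they do not bear on the name of an early rise. Replicate 2, which the rule did not use, showed no such rise over PBS 4 h in its share of counts. The files do not settle whether the content of this library matches its label, so every value given for LPS 4 h replicate 2 is that of the library labelled so, and may not be a response to LPS.

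**Figure D1:**
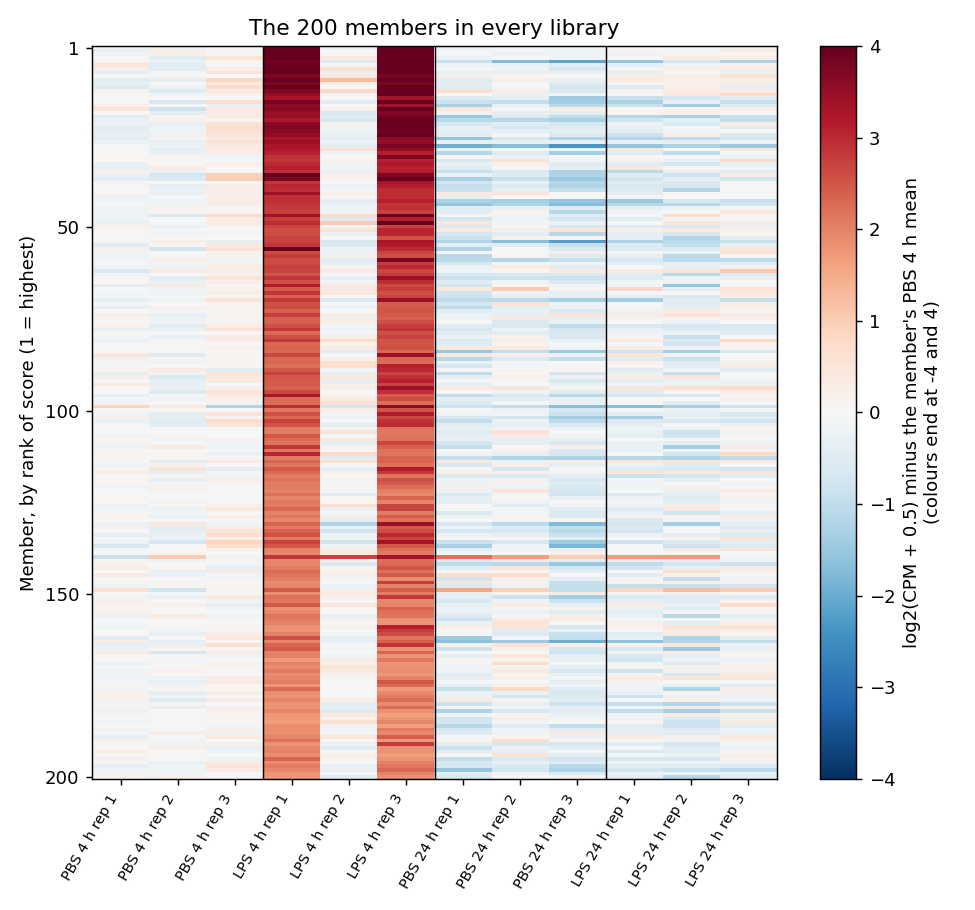
Levels of the 200 members in the 12 libraries, as log2(CPM + 0.5) minus the mean of the member's 3 PBS 4 h pools. Each line is a member in order of score, and red is above and blue below the PBS 4 h mean. The columns of LPS 4 h replicates 1 and 3 are red throughout, by the rule, while replicate 2 and the 24 h pools are pale.

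The height over controls varied widely among the members. Over all members the log2 ratio, with 0.5 CPM added to each mean, of the mean of LPS 4 h replicates 1 and 3 to the PBS 4 h mean had a median of 2.53, which is 5.76-fold, with quartiles of 2.11 and 2.98. Over the 10693 genes that met the first conditions the median was -0.20. The 27 members below 1 CPM in PBS 4 h had a median ratio of 10.3-fold, from 4.23-fold to 141-fold. The 73 members from 1 to 10 CPM had a median of 5.89-fold, and the 87 from 10 to 100 CPM a median of 5.27-fold. The 13 members at or above 100 CPM had a median of 4.52-fold and a highest value of 7.99-fold. The rule asked for at least 5 CPM under LPS at any control level, so it required a larger ratio of members with the lowest control levels, and nothing is read from the order of these classes. The added 0.5 CPM lowers the ratios most where the control level is close to it.

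Most members were present in control spleens. None had 0 counts in all 3 PBS 4 h pools, and 3 had 0 counts in at least 1 of them. In the 10 libraries other than LPS 4 h replicates 1 and 3, 16 members stayed below 1 CPM throughout. The PBS 4 h mean of the members ran from 0.0965 to 386 CPM, and their mean in LPS 4 h replicates 1 and 3 from 5.48 to 1563 CPM. The members were unequal in their share of reads, since the 5 highest held 21.0% of the summed CPM in those 2 pools and the 50 highest 75.7%.

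**Figure D2:**
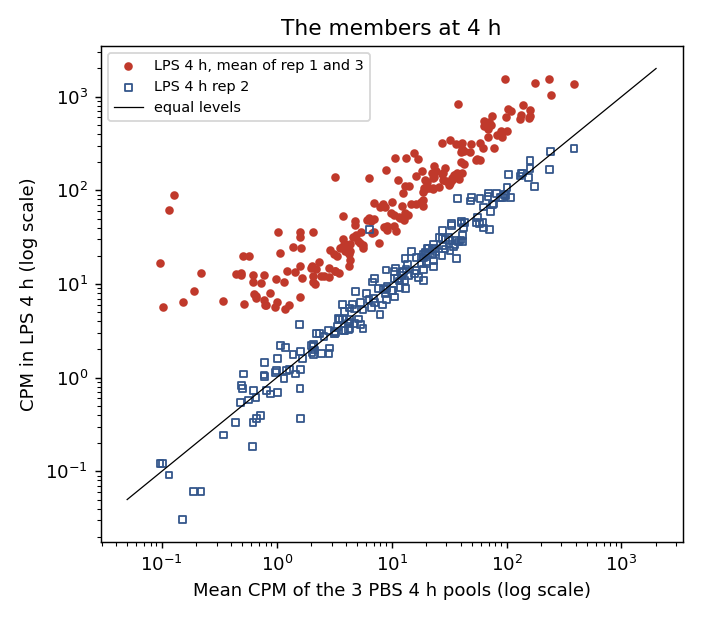
Level of each member in LPS 4 h against its mean in the 3 PBS 4 h pools, in CPM on log axes. Filled circles are the mean of LPS 4 h replicates 1 and 3 and open squares are LPS 4 h replicate 2, without the 1 member that had 0 counts there. The circles lie above the line of equal levels, by the rule, and the squares scatter about the line.

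TRINITY_DN237_c0_g1 had the highest score and was close to absent outside LPS 4 h replicates 1 and 3. It was at 70.5 CPM (2842 counts) in LPS 4 h replicate 1, at 106 CPM (3861 counts) in replicate 3, and had 0 counts in replicate 2. Among controls there were 6, 0 and 6 counts at 4 h and 0, 1 and 2 counts at 24 h. LPS 24 h held 4, 3 and 2 counts. LPS 4 h replicates 1 and 3 did not overlap with any other library, and a count of 0 in replicate 2 allows up to 0.0914 CPM, taken as 3 counts of that library and covering counting error only. The mean of LPS 4 h replicates 1 and 3 was 88.3 CPM ± 25.2 (SD, n = 2), against 0.128 CPM ± 0.111 (SD, n = 3) in PBS 4 h. With enough reads in only 2 libraries, it did not pass the filter on low counts in the fit of all 12 libraries. Nor did it pass in the fit without LPS 4 h replicates 1 and 3. It passed in the fit without LPS 4 h replicate 2, where all 200 members were tested. The assembler gave this Trinity gene 16 isoforms, of which 1 held 78.9% and 78.5% of its counts in LPS 4 h replicates 1 and 3.

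TRINITY_DN6694_c0_g1 had the highest mean CPM of the members in LPS 4 h replicates 1 and 3, and a rank of 37 by score. It was at 1153 CPM in LPS 4 h replicate 1, at 1973 CPM in replicate 3, and at 90.4 CPM in replicate 2. The PBS 4 h pools were at 62.7, 56.1 and 170 CPM, with replicate 3 well above the others. The PBS 24 h pools were at 34.2, 45.6 and 30.4 CPM, and the LPS 24 h pools at 47.9, 64.5 and 50.2 CPM. The 24 h pools of both treatments did not overlap, with LPS above PBS, and its 24 h ratio of 1.47 lay just inside the upper bound of the rule. It has 1 isoform, so its counts are not split within the Trinity gene. LPS 4 h replicates 1 and 3 had a mean of 1563 CPM ± 580 (SD, n = 2), which was 16.2-fold the PBS 4 h mean of 96.3 CPM ± 64.0 (SD, n = 3). In LPS 4 h replicate 2, which the rule did not use, it was 1.28 log2 units above PBS 24 h (SE 0.49), with an edgeR Benjamini-Hochberg adjusted p of 0.610.

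**Figure D3:**
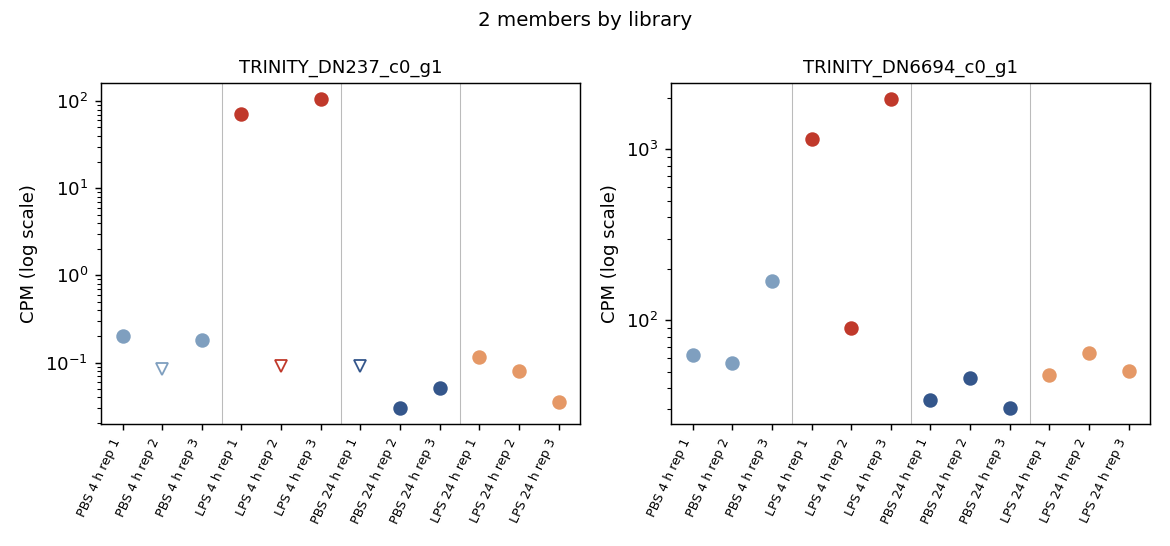
CPM of TRINITY_DN237_c0_g1 (left) and TRINITY_DN6694_c0_g1 (right) in the 12 libraries, on log axes whose ranges differ. Filled circles are measured values, and open triangles mark libraries with 0 counts, drawn at the level of 3 counts. In both, LPS 4 h replicates 1 and 3 are the highest libraries, and LPS 4 h replicate 2 lies among the others.

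LPS 4 h replicates 1 and 3 were close in level for most members. The rule scored the lower of these 2 pools and so favoured genes high in both. Nothing is therefore read from their closeness or from which was the higher. With 0.5 CPM added to each value, the ratio of replicate 3 to replicate 1 had a median of 1.17 over the members, with quartiles of 1.00 and 1.35. In plain CPM it reached 2 for 10 members, up to 3.50, and was below 0.5 for 1 member, at 0.470. Replicate 3 was the higher for 150 members (75%), against 38% of the 10693 genes past the first conditions. With library totals scaled by the trimmed mean of M-values (TMM), which corrects for differences in composition, these shares were 88.5% and 58.2%. The majority among the 10693 genes changed side with the scaling.

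Above the other 10 libraries, the gap was wide for nearly all members. Both pools lay above every other library for all 200 members and for 17.1% of the 10693 genes, and above the 6 pools of 24 h for 19.3% of those genes. They were at least 2 times the highest other library for 197 members, against 3.97% of those genes. The rule itself set the gap to the PBS 4 h pools. It also chose both pools to be high, which widens their gap to the 24 h pools and to LPS 4 h replicate 2. Nothing is therefore read from these counts. The smallest gap was 1.10 times, at the member of rank 140, in which LPS 4 h replicate 2 was also high. That member was at 42.5, 38.5 and 58.7 CPM in LPS 4 h replicates 1 to 3, and at 2.67, 11.6 and 4.94 CPM in the PBS 4 h pools. It was also at 26.5, 18.3 and 11.1 CPM in the PBS 24 h pools and at 18.5, 18.6 and 4.72 CPM in the LPS 24 h pools. It was singled out after its values were seen, has 9 isoforms, and is the only member in which replicate 2 lay more than 1.5 log2 units above the PBS 4 h mean.

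LPS 4 h replicate 2 was the one library labelled LPS 4 h that the choice did not use. Against PBS 4 h its median log2 ratio over the members was -0.04. It lay within the range of the PBS 4 h pools for 98 members (49%, against 53.1% of the 10693 genes), above all 3 for 51 (25.5%, against 24.3%) and below all 3 for 51 (25.5%, against 22.6%). These shares are near those of the other genes. The PBS 4 h pools had been used in the choice, through the highest of them.

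The PBS 24 h pools offer a reference that the rule had not set against the 4 h pools. The median log2 ratio of LPS 4 h replicate 2 to the PBS 24 h mean was 0.29 over the members and 0.04 over the 10693 genes. Replicate 2 lay above every PBS 24 h pool for 109 members (54.5%), against 26.2% of those genes, and below every one for 6, against 14.3%. Against LPS 24 h it lay above every pool for 98 members (49%), against 29.2%. It lay above all 6 pools of 24 h for 68 members (34%, against 10.4%) and below all 6 for 3 (1.5%, against 5.28%). By edgeR's quasi-likelihood test with Benjamini-Hochberg adjustment over 34574 Trinity genes, 0 of the 196 members tested were called at an adjusted p below 0.05. The lowest adjusted p among the members was 0.0844, and 0.107% of all tested genes were called, all of them higher. At an unadjusted p below 0.05, 33 members (16.8%) were higher and 0 lower, where 5.03% of all tested genes were higher. DESeq2 called 3 members, all higher, with 8 given no adjusted p, where it called 0.651% of all tested genes higher and 0.107% lower. In the same comparison limma-voom called 0 members. Replicate 2 was a single pool in this test, assumed to vary like the pools of the other groups.

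The PBS 4 h pools also stood above PBS 24 h, a reference that both comparisons share. The median log2 ratio of PBS 24 h to PBS 4 h was -0.28 over the members, with quartiles of -0.59 and -0.10, and -0.03 over the 10693 genes. All PBS 24 h pools lay below all PBS 4 h pools for 64 members (32%), against 8.55% of those genes, and above them for 1 member, against 2.62%. With 0.5 CPM added to each mean, 20 members (10%) were more than 2-fold lower at 24 h, against 0.935% of those genes. In plain CPM these were 33 members (16.5%), against 1.31%. The members had been chosen to be low in the highest PBS 4 h pool, which raises the ratio of PBS 24 h to PBS 4 h. By edgeR's quasi-likelihood test with Benjamini-Hochberg adjustment over 32542 Trinity genes, 0 of 196 members were called, and 0.0154% of all tested genes were called lower. At an unadjusted p below 0.05, 10 members (5.10%) were lower and 1 higher, where 4.38% of all tested genes were lower and 1.81% higher. DESeq2 called 0 members, where it called 1% of all tested genes lower and 0.0676% higher. By limma-voom 0 members were called, and 0% of all tested genes. LPS 4 h replicate 2 enters this contrast by way of each gene's estimated spread, which all 4 groups share, the filter and the scaling. With it left out, 8 of 200 members were called by edgeR, all lower at 24 h. In that fit 0.438% of all tested genes were called lower and 0.00597% higher. At an unadjusted p below 0.05 by edgeR there, 68 members were lower and 1 higher. Of all tested genes 6.46% were lower and 2.64% higher at that level. With the PBS groups alone in the fit, edgeR called 3 of 191 members, all lower. It called 0.253% of all tested genes lower and 0.013% higher. At an unadjusted p below 0.05 by edgeR in that fit, 57 members were lower and 3 higher. The shares of all tested genes were then 6.11% lower and 2.79% higher.

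**Figure D4:**
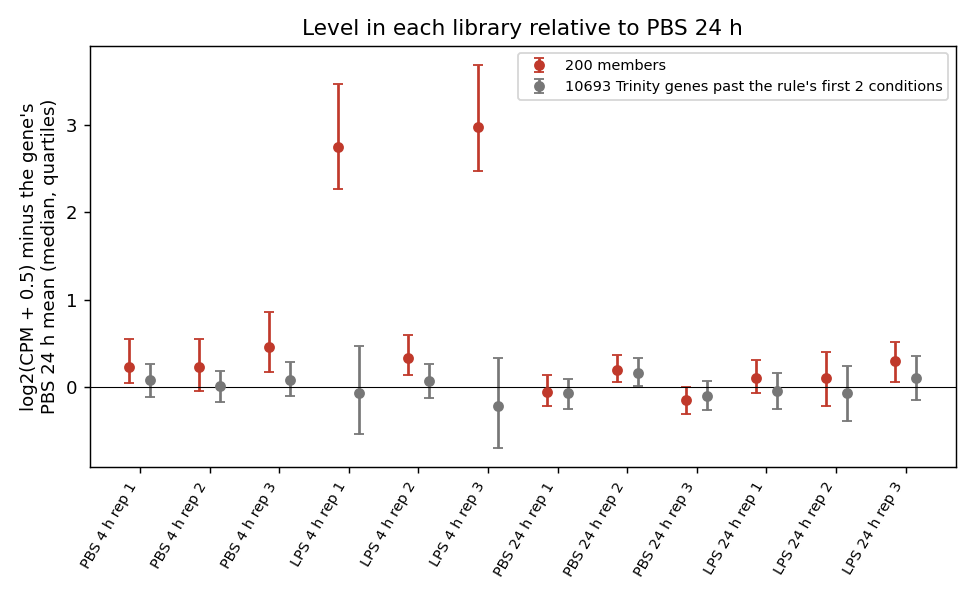
Median and quartiles, over the 200 members (red) and the 10693 Trinity genes past the first conditions of the rule (grey), of log2(CPM + 0.5) minus the gene's PBS 24 h mean, in each library. The PBS 4 h pools and LPS 4 h replicate 2 have member medians from 0.23 to 0.46, while the grey medians of those libraries run from 0.01 to 0.08. The 24 h pools run from -0.15 to 0.30 for the members.

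At 24 h the members were close to control level, within the bounds that chose them, and leaned towards LPS. The median log2 ratio of LPS 24 h to PBS 24 h was 0.19 over the members and -0.02 over the 10693 genes. The LPS mean was the higher for 142 members (71%), against 47.3% of those genes, and under TMM scaling for 142 against 49.8%. All 3 LPS 24 h pools lay above all 3 PBS 24 h pools for 28 members (14%), against 11% of the genes, and below them for 1 member, against 7.28%. By edgeR's quasi-likelihood test 0 of 196 members were called at 24 h (lowest Benjamini-Hochberg adjusted p 0.377). DESeq2 called 0 members, where it called 6.4% of all tested genes higher and 2.07% lower. By limma-voom 0 members were called, where 2.95% of all tested genes were called higher and 0.313% lower. In the edgeR fit of all 12 libraries no member (0 of 196) had an unadjusted p below 0.05. At that level 10.5% of all tested genes were higher and 8.63% lower. With LPS 4 h replicate 2 left out, 28 of 200 members were higher and 2 lower at that level. In that fit 12.9% of all tested genes were higher and 10.3% lower. Over all 32542 tested genes 2.98% were called higher and 0.273% lower under LPS. Without LPS 4 h replicate 2 these shares were 5.18% and 0.963%, and 0 of 200 members were called. As the rule kept only genes with a small 24 h ratio, nothing is read from these counts.

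Set against PBS 4 h, the LPS 24 h pools lay lower for most members. The median log2 ratio was -0.21 over the members, against -0.07 over the 10693 genes. It was above 0 for 63 members (31.5%), against 41.3% of those genes, so most of those genes lay lower as well. All LPS 24 h pools lay below all PBS 4 h pools for 51 members (25.5%), against 15.7% of those genes, and above them for 10 (5%), against 9.39%.

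The calls in the contrasts that include the LPS 4 h pools depended on the method and on which pools were in the fit. For LPS against PBS at 4 h with all 3 pools, edgeR's quasi-likelihood test called 0 of 196 members, with a lowest Benjamini-Hochberg adjusted p of 0.0904. Of all tested genes 0.00307% were called higher. At an unadjusted p below 0.05 all 196 members were higher, where 11.6% of all tested genes were. DESeq2 called 193 members, all higher, where it called 5.42% of all tested genes higher and 1.89% lower. By limma-voom 0 members were called, and 0% of all tested genes. Without replicate 2, edgeR called all 200 members higher, where 11.1% of all tested genes were called higher and 11.2% lower. For 24 h against 4 h in LPS fish, edgeR called 181 of 196 members (92.3%) lower at 24 h, where 4.65% of all tested genes were called lower and 3.14% higher. Without replicate 2 it was 198 of 200, where 14.4% of all tested genes were called lower and 15.8% higher. DESeq2 called 195 of 196 members lower, where it called 9.43% of all tested genes lower and 8.16% higher. The count was 18 with limma-voom, where 1.44% of all tested genes were called lower and 3.34% higher. By edgeR it was 0 with the LPS groups alone in the fit or without any 1 of the other 5 LPS pools. Those fits called 0% to 0.776% of all tested genes. Since the rule used these pools, nothing is read from these counts. The filter on low counts asks for reads in about as many libraries as a group has. The 4 members left out of the filtered fit of all 12 libraries had enough reads for the filter in only 2 libraries.

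Among the 10 libraries other than LPS 4 h replicates 1 and 3, the highest level of a member was most often in PBS 4 h replicate 3, for 66 of the 200 members. It was in LPS 4 h replicate 2 for 27, in PBS 24 h replicate 2 for 25 and in LPS 24 h replicate 3 for 23. No share over the 10693 genes is given for these counts, so nothing is read from their order. PBS 4 h replicate 3 was the highest of the PBS 4 h pools for 116 members (58%), against 36.2% of the 10693 genes, and under TMM scaling for 105 (52.5%), against 33.1%. In the summed CPM of the members it stood at 1.11 times the PBS 4 h mean. PBS 24 h replicate 2 was the highest of its group for 58% of the members and 58.9% of those genes, and LPS 24 h replicate 3 for 54% and 55.1%.

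Most members were simple in the assembly. Of the 200, 164 had 1 isoform and 36 (18%) had more, up to 16, where 22.2% of the 10693 genes had more than 1. The members came from 196 Trinity clusters, 4 of which held 2 members each. Whether the members of a cluster share sequence was not examined. The 36 members with several isoforms had 186 isoforms. In 106 of these both LPS 4 h replicates 1 and 3 lay above all PBS 4 h pools, and in 8 both lay below. Every isoform rose in this sense in 17 of the 36 members. The rule chose the sum of a member's isoforms for this same gap, and no share over the isoforms of other genes is given. These counts of isoforms are thus descriptions, and nothing is read from them. The isoform with the most counts in LPS 4 h replicates 1 and 3 was also the leading one in PBS 4 h for 31 of the 36. Its median share of the gene's counts was 82.8% in those LPS pools and 84.4% in PBS 4 h.

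In 5 members, at ranks 50, 77, 124, 182 and 184, the leading isoform differed between LPS 4 h replicates 1 and 3 and PBS 4 h. The lead was taken over LPS 4 h replicates 1 and 3 together and over the PBS 4 h pools together. For the member of rank 50, with 2 isoforms, the isoform that led under LPS held 63.4% and 76.8% in LPS 4 h replicates 1 and 3 and at most 27.7% in the PBS 4 h pools. In LPS 4 h replicate 2 its share was 29.3%, in the PBS 24 h pools 1.69% to 47.5%, and in the LPS 24 h pools 13.4% to 38.9%. In the member of rank 124 the share was 31.1% and 53.5% in LPS 4 h replicates 1 and 3, and 0.193% to 19.1% in PBS 4 h. In LPS 4 h replicate 1 the isoform leading in PBS 4 h was still ahead of it, with 32.0%. At rank 184 the isoform leading in PBS 4 h was ahead in LPS 4 h replicate 3, with 51.4% against 47.7%. At ranks 182 and 184 the shares in the PBS 4 h pools ran from 0% to 56.2% and from 0% to 93.4%, and overlapped those in LPS 4 h replicates 1 and 3.

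The widest gap was at rank 77, in a Trinity gene of 8 isoforms, which held 5 of the 8 isoforms that lay below. TRINITY_DN1727_c0_g1_i1, its leading isoform in PBS 4 h, had 1619, 1277 and 2234 counts in the PBS 4 h pools and 0 counts in all 3 LPS 4 h pools. Another isoform had 20099 and 22411 counts in LPS 4 h replicates 1 and 3, or 88.6% and 94.8% of the gene's counts, and 0 in the PBS 4 h pools and in LPS 4 h replicate 2. In replicates 1 to 3 at 24 h this other isoform had 157, 0 and 0 counts under PBS and 331, 502 and 0 under LPS. What lies behind the gap was not tested. TRINITY_DN1727_c0_g1_i1 also had 0 counts in PBS 24 h replicate 2 and in LPS 24 h replicates 2 and 3. It had 896 and 841 counts in PBS 24 h replicates 1 and 3 and 1217 in LPS 24 h replicate 1. The sum over the isoforms was steadier, at 106, 70.3 and 118 CPM in PBS 4 h and at 563, 88.4 and 650 CPM in LPS 4 h replicates 1 to 3. Because isoforms of a Trinity gene share sequence, their separate counts are estimates, and differences in sequence between the fish of a pool were not examined. This member was singled out after its values were seen.

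**Figure D5:**
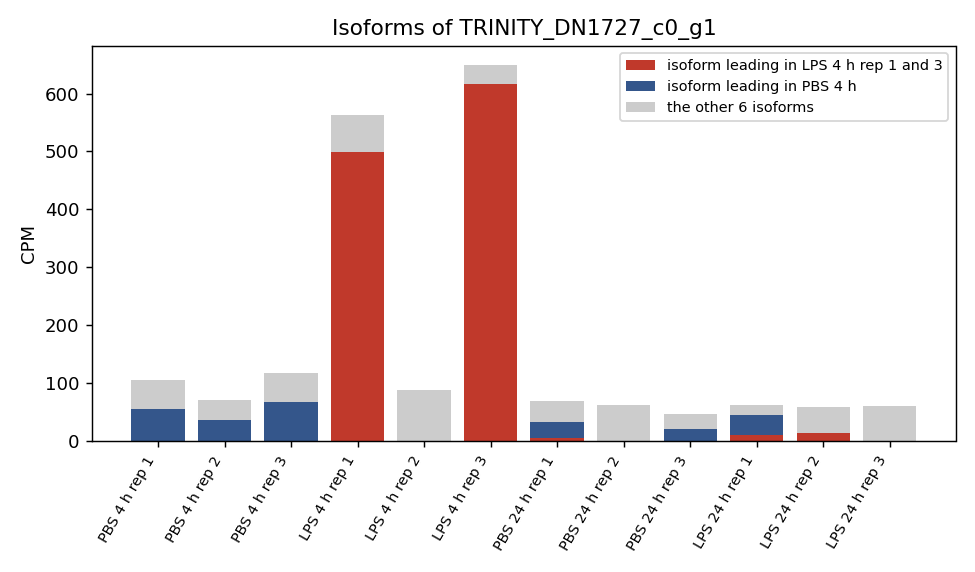
CPM of the Trinity gene at rank 77 in each library, stacked by isoform. Red is the isoform that led in LPS 4 h replicates 1 and 3, blue is TRINITY_DN1727_c0_g1_i1, and grey is the sum of the other isoforms. Blue is present in all PBS 4 h pools and absent from the LPS 4 h pools, and also from PBS 24 h replicate 2 and LPS 24 h replicates 2 and 3.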

How the data were processed

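The authors deposited estimated read counts per assembled transcript as whole numbers, for 58975 transcripts in 12 libraries. Tools listed in the submitters' processing notes, without saying which did what, are Bowtie2, RSEM, Trimmomatic 0.39, DESeq2 and FastQC. RSEM estimates need not be whole, so the deposited expected counts were treated as already rounded. How the transcripts were annotated, and whether strand was used in counting, is not given in the sources used here. Counts were summed per Trinity gene by dropping the isoform number, and CPM were computed from column totals. The library kit was directional, per the labels' protocols.

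The members and the lists were chosen with earlier results of these data known. Tests used edgeR 4.0.16 in R 4.3.3 (quasi-likelihood, robust, TMM, expression filter, 1 mean per group, all 12 libraries), with two-sided p-values adjusted over all tested Trinity genes and called at an adjusted p below 0.05. LPS 4 h replicate 2 was tested against PBS 24 h in a fit of 10 libraries, without LPS 4 h replicates 1 and 3. DESeq2 1.42.0, limma-voom (limma 3.58.1), RLE scaling, no filter, a replicate block, the compared groups alone and each pool left out were alternatives. The fits were tested on simulated counts. Pools of a group differed by a chi-square per degree of freedom of 43.9 to 183.7, so none was counted as a repeat. Replicates are pools of separate fish. No molecular identifiers are recorded, so floors on counts cover counting error only. TMM factors ran from 0.799 to 1.19. The identifiers printed are the members with the highest score and the highest mean CPM in LPS 4 h replicates 1 and 3, and 1 isoform that fell, chosen after its values were seen.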

Additional observations from a re-analysis of the deposited data

How the results depend on the processing

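Of the 200 members, 141 to 185 remained when the rule used TMM scaling (185), a pseudocount of 2 CPM (163), means in place of extremes (162), a 24 h ratio between 0.5 and 2 (141), at least 10 CPM (182) or single transcripts (166). With 1 pool left out, 158 to 188 remained. With no bound on the 24 h ratio 96 remained, and with all 3 LPS 4 h pools in the score 23. The median log2 fold at 4 h of 2.53 was 2.83 under TMM, which also moved the median of the 10693 genes from -0.20 to 0.08. It was 2.24 with a pseudocount of 2 CPM, 2.06 with all 3 LPS 4 h pools, and 2.38 to 2.60 with a pool left out. At 24 h the median of 0.19 ran from 0.09 to 0.27 with a pool left out, and TMM and other pseudocounts moved it by less than the spread between pools. The summed level in LPS 4 h replicate 2, 5410 CPM, was 5108 CPM under TMM. Counts by pool order under TMM and 2-fold counts in plain CPM were added after seeing the data.

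Members called in LPS against PBS at 4 h numbered 0 by edgeR and 193 by DESeq2, with 0 to 200 when a pool was left out. At 24 h the count was 0 in each alternative run. For 24 h against 4 h in PBS it was 0, 3 with the compared groups alone, and 0 to 8 with a pool left out. For 24 h against 4 h in LPS it was 181, 195 with DESeq2, 180 with RLE scaling, 161 with no filter and 18 with limma-voom. In that contrast it was 0 with the compared groups alone, and 0 to 198 with a pool left out. For LPS 4 h replicate 2 against PBS 24 h it was 0, 3 with DESeq2, and 0 with any of the other 9 pools left out. In the fit with a replicate block, 0 members were called in every comparison between groups, which ended the 181 calls. For 24 h against 4 h in LPS that fit called 0% of all tested genes, and for LPS against PBS at 24 h 1.45%. Pools with the same number had correlations of their deviations from -0.408 to 0.177, so the numbers are not taken to pair the pools. What lies behind these differences was not tested. Depth limits the members lowest in control pools most.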

Other observations

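In plain CPM, LPS 4 h replicate 2 stood at least 2-fold above the PBS 4 h mean in 5 members (2.5%, against 0.393% of the 10693 genes), of ranks 10, 13, 49, 88 and 140. With 0.5 CPM added to each value, those of ranks 10, 49 and 140 remained (1.5%, against 0.318% of those genes). At least 2-fold below the PBS 4 h mean, with 0.5 CPM added, was 1 member (0.5%, against 0.552%). The members had been chosen to be low in the highest PBS 4 h pool, which raises ratios over PBS 4 h. Nothing is therefore read from these shares. Ranks 13 and 88 were low in level, at 2.22 and 1.10 CPM in replicate 2 against means of 1.08 and 0.516 CPM in PBS 4 h. Rank 10 was at 82.4 CPM in replicate 2, against 24.8, 26.2 and 61.7 CPM in PBS 4 h and 762 and 924 CPM in LPS 4 h replicates 1 and 3. Rank 49 was at 3.72 CPM in replicate 2, against 1.15, 1.42 and 2.18 CPM in PBS 4 h and 15.2 and 48.4 CPM in replicates 1 and 3. These members were singled out after their values were seen.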
